A study of Mus musculus with 12 samples.

Results

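The loci described here are Smad7, Tpm1 and Cyr61, which in primary mouse embryonic fibroblasts (MEFs) lay under some of the widest domains of trimethylated lysine 4 of histone H3 (H3K4me3). They were chosen by the width of their H3K4me3 peaks in the same lists that are described here, so their width is a description and not a finding. Members are all peaks that overlap the mm9 windows from 75515000 to 75560000 on chromosome 18 (Smad7), 66865000 to 66905000 on chromosome 9 (Tpm1) and 145300000 to 145325000 on chromosome 3 (Cyr61). There were 14 such peaks among 128880 in the 8 lists of the series, and all 14 were among the 60795 H3K4me3 peaks. Chromatin immunoprecipitation with sequencing (ChIP-seq) had been made for H3K4me3 and for trimethylated lysine 27 (H3K27me3) from primary MEFs of hybrid 129/B6 background. The conditions were lincRNA-p21-/- knockout (KO) MEFs with doxorubicin, KO MEFs with mock treatment, wild-type (WT, lincRNA-p21+/+) MEFs with doxorubicin and WT MEFs with mock treatment. Doxorubicin, a DNA-damaging drug, was given at a labelled 0.5 mM for 24 h, a dose whose unit may be mislabelled, possibly in place of micromolar. The KO cells lack lincRNA-p21, a noncoding transcript that p53 switches on, and the series asks how it acts on Polycomb target genes and on the G1/S checkpoint. Each mark and condition had 1 library, so no value below has a replicate error and no test between conditions was made.

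H3K4me3 is laid down at active and poised promoters by COMPASS methyltransferase complexes, mostly over CpG-rich sequence. At most promoters it forms a narrow peak around the transcription start. At a minority of genes, often genes that a cell type depends on, it spreads far into the gene body. H3K27me3 is the mark of Polycomb repressive complex 2. Smad7 is an inhibitory SMAD that TGF-beta induces and that blocks the TGF-beta receptor in turn. Tpm1 encodes a tropomyosin, a coiled-coil protein that lies along actin filaments and steadies stress fibres. Cyr61, also named Ccn1, encodes a secreted matrix protein of the CCN family that binds integrins, is made early after serum or stretch, and is a textbook target of YAP and TEAD.

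The promoters of Tpm1 and Cyr61 are shown because H3K4me3 is a promoter mark that favours CpG-rich sequence, and their letters let the CpG content and motifs at these gene starts be seen. Both are from RefSeq (GRCm38.p6, minus strand, chr9:67049164-67049463 for Tpm1 and chr3:145649936-145650235 for Cyr61), running 5′ to 3′ from 250 bases before to 50 bases after the gene start. This build is not the mm9 of the peak lists, and no position was converted between them. The promoter set used held no sequence for Smad7, so its promoter was not searched for CpG or motifs. Capitals mark the TEAD motif GGAATG on either strand and the TATA box TATAAA.
Tpm1: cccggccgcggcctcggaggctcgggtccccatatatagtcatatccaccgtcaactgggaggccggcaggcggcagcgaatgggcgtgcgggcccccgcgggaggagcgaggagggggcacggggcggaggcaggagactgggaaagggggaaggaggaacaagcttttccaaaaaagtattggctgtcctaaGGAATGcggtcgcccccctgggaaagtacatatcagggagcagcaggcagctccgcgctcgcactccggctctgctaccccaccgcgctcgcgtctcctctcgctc
Cyr61: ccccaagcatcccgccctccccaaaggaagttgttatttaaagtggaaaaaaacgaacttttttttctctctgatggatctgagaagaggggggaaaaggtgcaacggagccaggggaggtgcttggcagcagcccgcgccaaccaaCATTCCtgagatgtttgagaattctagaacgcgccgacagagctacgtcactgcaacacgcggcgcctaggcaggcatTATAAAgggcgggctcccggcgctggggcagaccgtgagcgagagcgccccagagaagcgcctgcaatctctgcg
The Tpm1 promoter had 27 CpG dinucleotides and 66.3% G and C, and the Cyr61 promoter 20 CpG and 57.0%, beside medians of 7 CpG and 52.7% over 32851 mouse promoters of the same length. Of all promoters, 84.5% had fewer CpG and 84.4% a lower G and C share than Tpm1. For Cyr61 these were 73.5% and 62.6%. Each held 1 TEAD motif, beginning 56 bases before the start in Tpm1 and 103 bases before it in Cyr61. Of all promoters, 14.7% held that motif. The Cyr61 promoter also held a TATA box beginning 25 bases before the start, a motif of 13.6% of promoters. Neither promoter held the SMAD palindrome GTCTAGAC, the CArG box of the factor SRF or a full p53 site, which 0.213%, 1.63% and 0.0731% of promoters held.

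Smad7 had the widest H3K4me3 peak of every list. Its main peak spanned 13025 bp in KO doxorubicin, 13170 bp in KO mock, 14165 bp in WT doxorubicin and 13671 bp in WT mock cells. In the same order this was 7.33, 7.64, 8.17 and 6.74 times the median H3K4me3 peak of its list. The domain began between 75525564 and 75525932 on chromosome 18 and ended between 75538724 and 75539728. Its lower edge was at the same base, 75525564, in both WT lists. The 4 lists shared 12793 bp of it, which is 90.3% of the bases covered in any list. The WT doxorubicin list alone held a further peak in the window, 877 bp wide, from 75545736 to 75546612 and 6007 bp beyond the domain. With a score of 95.88, that peak lay near the floor of the lists, where no H3K4me3 peak scored under 80.01. The authors gave each peak its score, which is minus 10 times the log10 of the peak caller's p-value.

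Tpm1 had the second widest peak in both KO lists, at 10017 bp with doxorubicin and 9944 bp with mock treatment. In WT cells the same domain covered 10520 bp with doxorubicin and 10704 bp with mock treatment. The WT mock domain was a single peak from 66887573 to 66898276 on chromosome 9. In WT doxorubicin cells a 51-bp gap cut it into a peak of 9426 bp at a score of 3100 and a peak of 1094 bp at a score of 130.93, so that its widest peak ranked 11th in that list and 4th in WT mock. The domain's lower edge differed more between the genotypes than its upper edge. It lay at 66888111 and 66888243 in KO doxorubicin and KO mock cells, against 66887606 and 66887573 in WT doxorubicin and WT mock cells. The upper edges of all 4 lists lay within 149 bp. The lists shared 9834 bp, or 91.9% of the bases covered in any.

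Cyr61 had a single H3K4me3 peak in each list, and its domain was the most alike across conditions. It spanned 8340 bp in KO doxorubicin, 8488 bp in KO mock, 8767 bp in WT doxorubicin and 8653 bp in WT mock cells, from 145308714 to 145317480 on chromosome 3 at its fullest. Its width ranked 7th, 3rd, 16th and 20th in those lists. The upper edges of the 4 lists lay within 87 bp, and the lower edges within 385 bp. Of the bases covered in any list, 8295 bp or 94.6% were covered in all 4. Whether the covered bases of the 3 domains are exonic, intronic or upstream was not determined, because no mm9 annotation was used, and the gene names are those given to the windows.

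**Figure D1:**
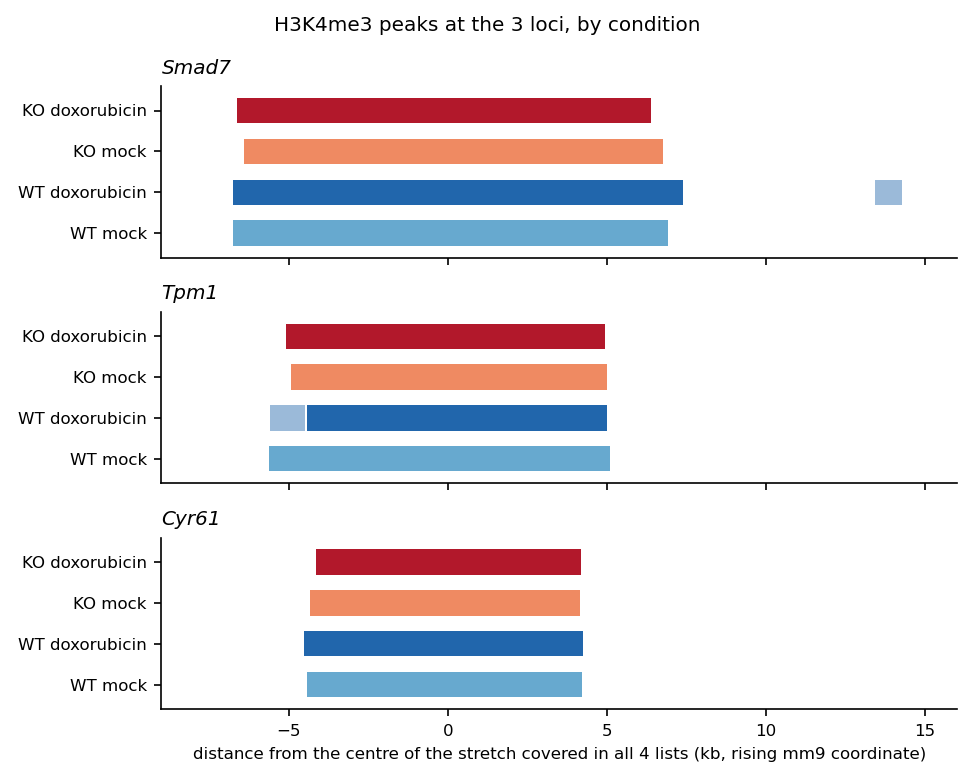
H3K4me3 peaks of Smad7, Tpm1 and Cyr61 in the 4 conditions, as bars along the distance (kb) from the centre of the stretch covered in all 4 lists, with pale bars for peaks scored under 200. Each domain keeps its outline in the 4 rows, and the pale bars are the 877-bp peak at Smad7 and the 1094-bp piece at Tpm1, both in WT doxorubicin cells.

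The main peak of each locus had a score of 3100 in every list, so the score says nothing of how their enrichment compares. The value 3100 is a pile-up shared by many peaks. A score of 3100 or more was held by 35.4% of H3K4me3 peaks in KO doxorubicin, 8.05% in KO mock, 20.0% in WT doxorubicin and 18.1% in WT mock cells. The read depth behind the lists is unknown, since they give no counts.

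**Figure D2:**
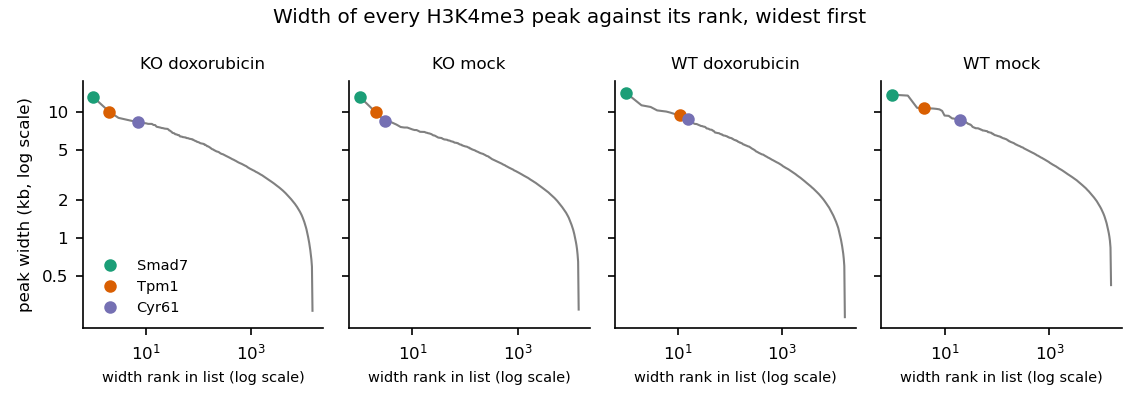
Width (kb, log scale) of the H3K4me3 peaks of each list against rank by width (log scale), the widest at rank 1. The coloured points are the widest peaks of Smad7, at rank 1 in each list, Tpm1, at ranks 2 to 11, and Cyr61, at ranks 3 to 20.

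Relative to their length, these domains overlapped closely between the lists. H3K4me3 peaks that overlap between lists were joined into regions, of which 13107 had a peak in all 4. By mean covered length Smad7 ranked 1st, Tpm1 3rd and Cyr61 14th of these. The 20 widest regions had means of 8135.2 to 13508 bp, and the median region 1982 bp. The share of bases covered in all 4 lists had a median of 81.6% in the 20 widest (range 62.9 to 94.6%) and of 72.1% over all regions. Cyr61 had the highest share of the 20, Tpm1 the third highest and Smad7 the fourth. The region between Cyr61 and Tpm1 in that order lay on chromosome 11 from 96684173 to 96692591, with 93.2%. The ratio of the longest to the shortest list was 1.09 for Smad7, 1.08 for Tpm1 and 1.05 for Cyr61, with medians of 1.16 in the 20 widest and 1.29 over all regions. Some list cut 9.43% of all regions into several peaks, and 58.7% of those with a mean of at least 5 kb. In the 20 widest regions this held for 18, and the exceptions were Smad7 and Cyr61. These are descriptions of loci picked on width in the same lists, with no test, and their share and ratio depend in part on length, since an edge shift of a given size weighs less in a longer region. In base pairs some edges were spread widely. The upper edge of Smad7 was spread over 1004 bp, more than in 95.6% of all regions, and the lower edge of Tpm1 over 670 bp, more than in 89.6%. The medians of the 20 widest regions were 590.5 bp for the upper and 636.5 bp for the lower edge.

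**Figure D3:**
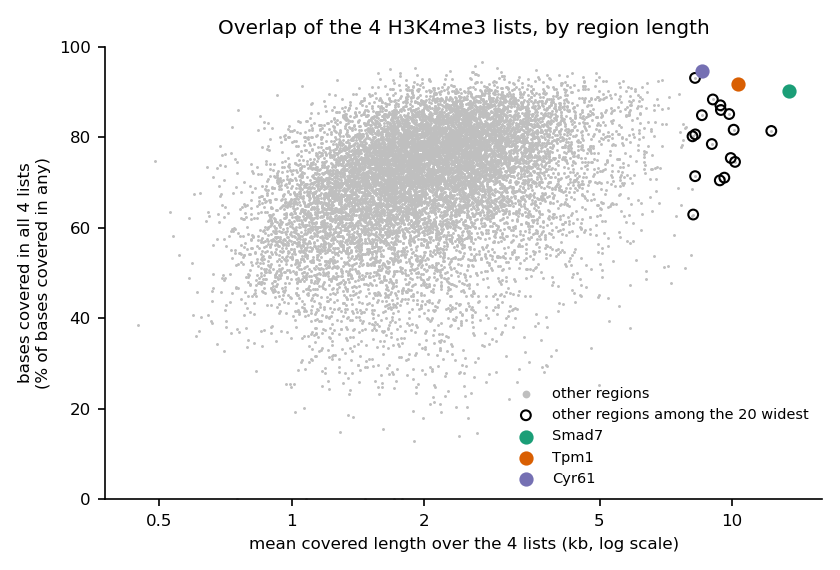
Bases covered in all 4 H3K4me3 lists as a percentage of those covered in any (vertical axis) against mean covered length (kb, log scale), 1 point for each of 13107 regions. Smad7, Tpm1 and Cyr61, at 90.3, 91.9 and 94.6%, lie in the upper part of the 20 widest regions, whose other members are open circles.

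The 4 comparisons that follow share lists, so they are not independent of each other. Doxorubicin against mock treatment in WT cells put the question of how DNA damage bears on the domains while lincRNA-p21 is present. The covered length in the Smad7 window was 15042 bp with doxorubicin and 13671 bp with mock treatment, 1371 bp longer (log2 ratio 0.14). Of that difference 877 bp was the separate low-scoring peak, and the log2 ratio of the domain alone was 0.05. Tpm1 covered 10520 bp with doxorubicin and 10704 bp with mock treatment (log2 ratio -0.03), and Cyr61 8767 bp and 8653 bp (0.02). None of the 3 loci passed 1.5-fold, nor did any of the 20 widest regions. Of the 14430 regions with a peak in both lists 747 did (5.18%). Those regions had a median log2 ratio of -0.12, and the 20 widest one of -0.03. The domains of Smad7, Tpm1 and Cyr61 had higher ratios than 79.3%, 67.9% and 75.1% of all regions. The median peak widths of the lists differ by -0.23 on the log2 scale, a larger shift than the -0.12 of the median region. Relative to that shift the ratios were 0.36 for the Smad7 window and 0.28 for its domain alone, 0.20 for Tpm1, whose direction turns, and 0.25 for Cyr61. The same division turns the median log2 ratio over all regions from -0.12 to 0.11, so it moves the median region past equal length. It also turns the balance of all regions past 1.5-fold, of which 21.8% were longer with doxorubicin before it and 74.6% after it. The lists also differ in number of peaks, 16477 with doxorubicin and 14897 with mock treatment, which bears on their medians. Which ratio is nearer the truth was not tested.

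The same comparison in KO cells gave differences of 148 bp or less. Smad7 covered 13025 bp with doxorubicin and 13170 bp with mock treatment (log2 ratio -0.02). Tpm1 covered 10017 bp and 9944 bp (0.01), and Cyr61 8340 bp and 8488 bp (-0.03). Again 0 of 3 loci and 0 of the 20 widest regions passed 1.5-fold. Of 13324 regions 595 did (4.47%), and the median log2 ratio of the 13324 was 0.07. The ratios of Smad7, Tpm1 and Cyr61 were higher than those of 33.3%, 38.5% and 31.4% of all regions, so they lay below the median. Dividing by the list medians, which differ by 0.04, gives -0.06 for Smad7, -0.03 for Tpm1, whose direction turns, and -0.07 for Cyr61. At Smad7 both edges lay at lower coordinates with doxorubicin, by 232 bp at the lower edge and 377 bp at the upper edge, so that the domain was offset more than shortened. Whether the effect of doxorubicin differed between the genotypes was not tested.

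KO against WT with doxorubicin put the question of how the domains differ without lincRNA-p21 under damage. Smad7 covered 13025 bp in KO and 15042 bp in WT cells (log2 ratio -0.21, and -0.12 for the domain without the separate peak). Tpm1 covered 10017 bp in KO and 10520 bp in WT cells, and Cyr61 8340 bp in KO and 8767 bp in WT cells, each a log2 ratio of -0.07. None of the 3 loci and none of the 20 widest regions passed 1.5-fold, against 1399 of 13924 regions (10.0%). The median log2 ratio was -0.02 over all regions and -0.07 over the 20 widest. The domains of Smad7, Tpm1 and Cyr61 lay below the median region, with higher ratios than 36.0%, 43.0% and 42.7% of all regions. Of the 2017 bp by which Smad7 differed, 877 bp was the separate peak, and most of the rest was at the upper edge of the domain, which lay at 75538724 on chromosome 18 in KO and at 75539728 in WT cells, 1004 bp apart. At Tpm1 and Cyr61 it was at the lower edge, which was 505 bp and 385 bp further in, while the upper edges differed by 49 bp and 42 bp. Relative to the difference between the list medians (0.04), all 3 stayed negative. The ratios were then -0.24 for the Smad7 window, -0.16 for its domain alone, and -0.11 for both Tpm1 and Cyr61. That division moved the median over all regions from -0.02 to -0.06, further from equal length. Counted by the widest peak alone, Tpm1 turns to 0.09, because the WT doxorubicin list cuts it.

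KO against WT with mock treatment asked the same without induced damage. Smad7 covered 13170 bp in KO and 13671 bp in WT cells (log2 ratio -0.05). Tpm1 covered 9944 bp in KO and 10704 bp in WT cells (-0.11), of which 670 bp was at the lower edge. Cyr61 covered 8488 bp in KO and 8653 bp in WT cells (-0.03). Here too 0 of 3 loci and 0 of the 20 widest regions passed 1.5-fold, against 1610 of 13411 regions (12.0%). All 20 of the widest regions were shorter in KO. The median log2 ratio was -0.23 over all regions and -0.17 over the 20 widest, so that the domains of Smad7, Tpm1 and Cyr61 were closer to equal length than the median region. Their ratios were higher than those of 79.5%, 71.9% and 82.8% of regions. The median peak width of the KO list was lower by the same amount (log2 ratio -0.24), and relative to that shift the ratios turn to 0.18, 0.13 and 0.21. Of all regions past 1.5-fold 2.05% were longer in KO. After the same division 774 regions were past 1.5-fold, of which 18.9% were longer.

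**Figure D4:**
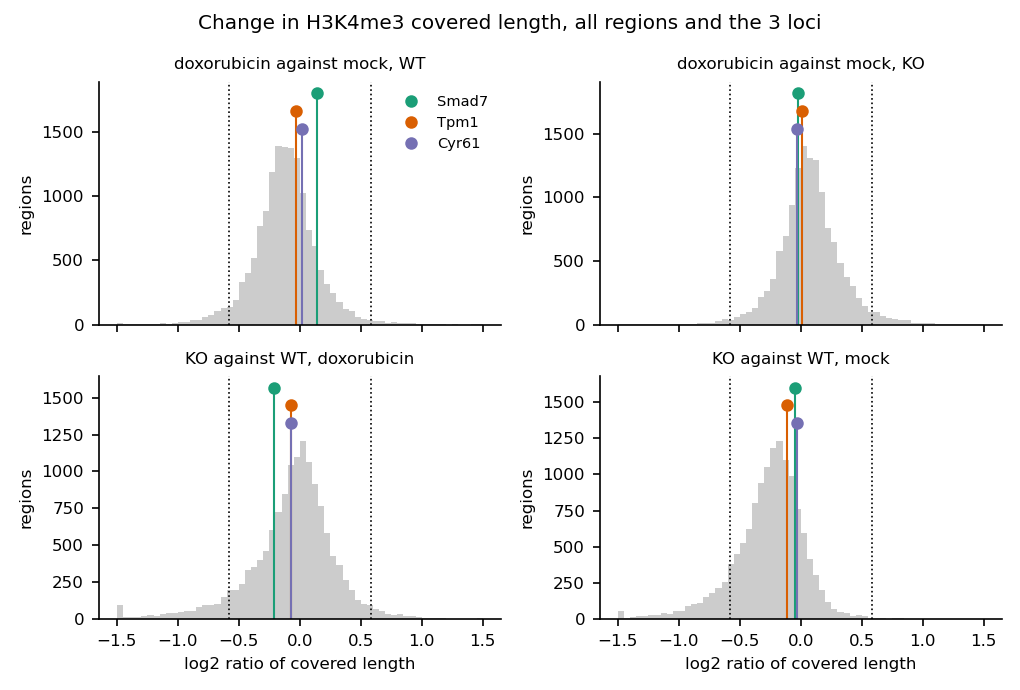
Number of H3K4me3 regions by log2 ratio of covered length in the 4 comparisons (grey bars, with values beyond 1.5 in the end bins). Coloured pins mark the covered length in the whole windows of Smad7, Tpm1 and Cyr61, and their height has no meaning. All 12 stand between the dotted lines at 1.5-fold, from -0.21 to 0.14. Both ends are Smad7 with its separate 877-bp peak in WT doxorubicin cells. Its domain alone, the measure of the bars, had -0.12 and 0.05 there.

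In covered length the genotypes did not overlap at any of the 3 loci, since both KO lists were shorter than both WT lists. This holds for 3 of 3 loci, and it held for 5460 of the 13107 regions (41.7%) and for 13 of the 20 widest, so that it is common in these lists. The count was not planned and was made after the data had been seen. The reverse, with both KO lists longer, held for 6.13% of regions. Divided by the median peak width of their list, 0 of the 3 loci had both KO lists below both WT lists, and of all regions 24.6% did and 18.2% had both KO lists longer. After that division KO stayed shorter than WT with doxorubicin at all 3 loci, and was longer than WT with mock treatment. The list medians were 1777 bp in KO doxorubicin, 1723.5 bp in KO mock, 1734 bp in WT doxorubicin and 2029 bp in WT mock cells. The part that depth or enrichment of the libraries has in the shorter KO domains was not tested. Doxorubicin and mock lists overlapped in length at all 3 loci, as at most regions, since both doxorubicin lists were shorter at 14.6% of regions and longer at 5.79%.

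H3K27me3 was listed nowhere in the 3 windows. None of the 4 H3K27me3 lists had a peak there, nor within 10 kb of a window's edge or 100 kb of a domain's edge. The nearest H3K27me3 peak of any list was 327 kb from Smad7, 323 kb from Tpm1 and 416 kb from Cyr61, with medians of 32.4 kb over all regions and 49.3 kb over the 20 widest. Of all regions 90.5%, 90.4% and 92.6% lay nearer to H3K27me3 than these 3 domains. Absence of the mark was usual at wide domains, since 19 of the 20 widest regions and 85.1% of all regions had no H3K27me3 peak in any list. An absent peak here means that none with a score of at least 80 was listed.

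The H3K27me3 peaks nearest to the domains were partly stable between conditions. Below Smad7 on chromosome 18 each list had H3K27me3 peaks 369 to 371 kb away, covering 2956 bp in KO doxorubicin, 2761 bp in KO mock, 3414 bp in WT doxorubicin and 4556 bp in WT mock cells. This was a single peak scoring 467.12 to 592.28 in 3 lists, and in KO doxorubicin cells a 95-bp gap cut it into pieces of 2061 bp, with a score of 398.75, and 895 bp, with a score of 85.74. Above Smad7 the nearest peak varied more, at 330 kb in KO doxorubicin, 369 kb in KO mock, 327 kb in WT doxorubicin and 379 kb in WT mock cells. It scored 80.63 to 184.37. Below Tpm1 on chromosome 9 each list had a peak 323 to 324 kb away, 1375 to 2873 bp wide. Above Cyr61 on chromosome 3 each list had a peak 462 kb away, 1278 to 2574 bp wide. Below Cyr61 the nearest peak was at 416 kb in KO mock cells and at 614 kb in WT doxorubicin, 1697 kb in WT mock and 2544 kb in KO doxorubicin cells, and in the 3 lists nearest to the domain it scored 80.34 to 91.95.

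The distance to other H3K4me3 differed between the loci. The nearest other H3K4me3 region of any list was 6.01 kb from Smad7, 63.4 kb from Tpm1 and 36.4 kb from Cyr61, with medians of 26.3 kb over all regions and 10.3 kb over the 20 widest. Of all regions 18.1%, 74.7% and 59.4% had a nearer neighbour than these 3 domains. Below Smad7 each list had a peak 22.1 to 22.6 kb away, 1572 bp wide in KO doxorubicin, 1334 bp in KO mock, 1585 bp in WT doxorubicin and 1640 bp in WT mock cells. Above it the next peak was 315 to 316 kb away in the 3 lists that lack the 877-bp peak of WT doxorubicin cells. Tpm1 had its nearest neighbour 63.4 to 64.6 kb below it, and none for 522 kb above it, or 582 kb in KO mock cells. Cyr61 had neighbours 67.6 to 68.4 kb below and 103 to 104 kb above it. A 324-bp peak with a score of 87.07, in KO doxorubicin cells alone, lay 36.4 kb above it. In the RefSeq annotation of GRCm38.p6, used for gene order alone, Tpm1 stands between Lactb and Tln2, and Cyr61 between Znhit6 and Ddah1. No neighbouring peak was assigned to a gene.

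**Figure D5:**
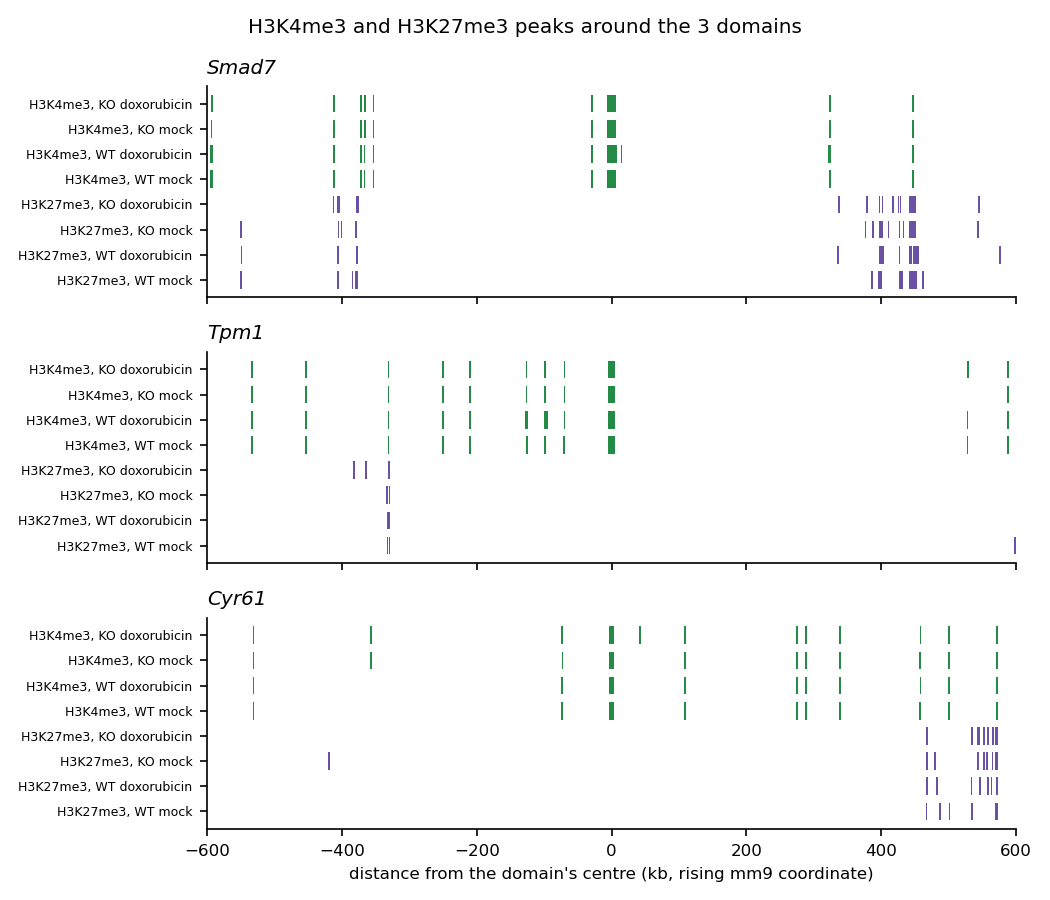
H3K4me3 (green) and H3K27me3 (purple) peaks within 600 kb of the centre of each domain in the 4 conditions, along the distance (kb), with peaks narrower than 2.5 kb drawn at that width. The wide green bars at 0 are the domains, and no purple bar lies within 100 kb of them.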

How the data were processed

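ChIP-seq peak lists of 8 libraries (H3K4me3 and H3K27me3 in 4 conditions, 1 library each) were used, and the 4 inputs were not used here. Per the submitters' processing notes, Bowtie 0.12.7, MACS 1.4.2 and mm9 were used. Per the file headers, the deposited score of a peak is minus 10 times the log10 of its p-value. No list holds a score under 80, and the caller's settings are not given in the sources used here. Per the labels' protocols, fixation took 10 min in 1% formaldehyde, and sonication gave fragments of 300 to 500 bp. Depth per library is unknown, so no interval on a length was made.

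Starts were read as counting from 0 and are printed counting from 1. Covered length is the summed width of the peaks that overlap a window or region. Peaks of the 4 H3K4me3 lists that overlap by at least 1 bp were joined into regions, and a region with a peak in both lists of a comparison was called past 1.5-fold in covered length in either direction. The domain of a locus is its region present in all 4 lists. The joining and ratio steps were tested on simulated peaks. Alternatives were thresholds of 25% (the longer list at least 25% longer) and 2-fold, a score of at least 100, joining peaks less than 1 kb apart, dividing lengths by the median peak width of the list, the widest peak, the span with gaps, clipping at the window, and windows widened by 10 kb. The 3 loci, the 20 widest regions, the gene lists and the motifs were chosen with earlier results of these data known. Planned gene lists and cell type markers could not be placed on peaks, because no mm9 annotation was used, so the MEF label was not checked against markers. Promoters were searched on both strands, and Tpm1 and Cyr61 (as Ccn1) were matched by symbol or synonym. The versions were Python 3.11.15, matplotlib 3.10.9, numpy 2.4.6 and pandas 2.3.3.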

Additional observations from a re-analysis of the deposited data

How the results depend on the processing

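With 1 library per condition, no library could be left out. The count of H3K4me3 regions past the fold threshold moved with that threshold. At 25% it was 3099 for doxorubicin against mock in WT, 2489 in KO, 3818 for KO against WT with doxorubicin and 4895 with mock treatment. At 2-fold it was 93, 88, 365 and 312 in the same order. Dividing lengths by the median peak width of each list left 774 for KO against WT with mock treatment. A score of at least 100 and joining peaks less than 1 kb apart kept the 4 counts within 1.5 times. Of the 12 log2 ratios at Smad7, Tpm1 and Cyr61, none passed 1.5-fold under a score of at least 100, the widest peak, clipping or division by list medians, which spanned -0.24 to 0.36. With the gap to its separate peak included, Smad7 passed it at 0.62 for doxorubicin against mock in WT and at -0.69 for KO against WT with doxorubicin. The count of loci with both KO lists below both WT lists was not planned and was made after the data had been seen. Division by list medians, an alternative planned for the other results, left 0 of the 3 loci with that order, and 24.6% of all regions. The widest peak left 2 of the 3. H3K27me3 peaks in the windows stayed at 0 with a score of at least 100 and with windows widened by 10 kb. The lists show presence above a score and no signal height, and peaks tied at a score of 3100 have no order among them.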

Other observations

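Promoter letters of genes related in function were counted as a description, with no test. Some lists are named for targets of TEAD or SRF, the factors whose motifs were searched. Motif counts in those lists are therefore not independent of the choice of genes. Of the YAP and TEAD target genes searched, 5 of 6 had a promoter in the table and all 5 (Ankrd1, Amotl2, Axl, Lats2 and Ajuba) held GGAATG, a motif of 14.7% of all promoters. In the list of actin cytoskeleton genes and SRF targets, 12 of 14 had a promoter, of which 4 held GGAATG (Tpm1, Acta2, Vcl and Flna) and 5 a CArG box (Actg1, Myl9, Cnn2, Vcl and Srf), against 1.63% of all promoters. Cyr61 was the holder of GGAATG among 2 CCN family promoters found of 6 genes. In the list of TGF-beta feedback genes and targets, 5 of 10 had a promoter and 1, Smad6, held the SMAD palindrome, against 0.213% of all promoters. Smad7 was on that list but was not among the 5 searched. No promoter of these lists held a full p53 site.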
